A study of Mus musculus with 8 samples.

Results

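Csf1, Il34 and Csf1r encode the 2 ligands of the macrophage growth factor receptor and the receptor itself, and all 3 were found by symbol among the 53801 genes of the count table, of which 16244 were tested for an injury effect. RNA was sequenced from dorsal root ganglia, the clusters of sensory nerve cell bodies beside the spinal cord, of C57BL/6J mice labelled male. The injured libraries came from the left side at days 1, 3 and 7 after tight ligation of the left L4 spinal nerve. The contralateral libraries held the right ganglia of those animals, whose nerves were not tied, and another pool, labelled no injury, was split into 1 left and 1 right library. Each of the 8 libraries held ganglia L3 to L5 of 3 pooled mice, so every injured library also holds 2 ganglia whose own nerve was not tied. All groups share strain and housing, none carries an engineered allele, and the protocol's sham operation is not assigned to any library by the labels used here.

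Colony-stimulating factor 1 and interleukin-34 bind the same receptor tyrosine kinase, CSF1R, on monocytes, macrophages and microglia, and signalling through it keeps these cells alive and lets them divide. The ligands are unrelated in sequence family and are made by different cells: IL-34 is best known from keratinocytes and neurons, CSF1 from many cell types, including fibroblasts. In mice, sensory neurons whose axon has been cut are known to make Csf1, which acts on macrophages in the ganglion and on microglia in the spinal cord. In bulk tissue a change in the number of cells of a type and a change in RNA per cell cannot be told apart, which applies to every value that follows.

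Total counts lay between 20488115 and 21652688 reads, so the upper limit for a gene with 0 reads, set at 3 reads, was 0.139 to 0.146 CPM, a gene's counts per megaread of its library. Atf3, a transcription factor switched on by axon injury, stood at 464, 629 and 618 CPM in the injured libraries of days 1, 3 and 7, 126, 167 and 110 CPM in the contralateral libraries and 10.9 and 11.0 CPM left and right without injury. Neuronal (Tubb3, Scn10a), satellite glial (Fabp7) and macrophage (Cd68, Aif1, Adgre1) markers were present in every library. Some departures bear on comparisons between the libraries. The libraries labelled no injury held 238 and 191 CPM of Xist, the female-specific transcript, and no reads of the Y-linked Kdm5d, while the operated libraries held at most 0.142 CPM of Xist and at least 13.1 CPM of Kdm5d, so the stated sex does not hold for that pool. The contralateral library of day 1 had 24.1 CPM of the neutrophil precursor gene Mpo against at most 1.83 CPM elsewhere. The 10 neutrophil genes listed for this work summed to 524 CPM there. Their sum was 284 and 77.5 CPM left and right without injury and 25.3 to 100 CPM in the other libraries. The right library without injury also held 288 CPM of the skeletal muscle gene Acta1, against 59.8 CPM in the left one and less in the operated libraries.

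Csf1, the inducible ligand, lies on the minus strand of chromosome 3 at 107741048 to 107760469 (GRCm38, ENSMUSG00000014599) and overlaps no other annotated gene. The gene's 7 annotated transcripts were counted together, so the secreted and the membrane-bound forms of the protein cannot be told apart. Of the members only Csf1 had an entry in the promoter set used here, so no promoter is shown for Il34 or Csf1r. The 250 bases before the annotated start of Csf1 are shown. They are RefSeq's, chr3:107760470-107760719 of GRCm38.p6, minus strand, 5′ to 3′, and the capitals mark matches on either strand to a simplified NF-kB motif, GGG and CC separated by any 5 bases, and to the GC box GGGCGG.
Csf1 promoter: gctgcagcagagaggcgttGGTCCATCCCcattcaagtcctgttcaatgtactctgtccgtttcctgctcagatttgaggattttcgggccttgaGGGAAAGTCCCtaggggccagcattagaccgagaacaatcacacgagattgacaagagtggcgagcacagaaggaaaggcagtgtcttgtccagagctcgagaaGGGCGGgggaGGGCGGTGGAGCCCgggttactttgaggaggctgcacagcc
Letter patterns picked with the sequence in view were searched on both strands in these 250 bases and in the same window of all 32851 promoters of the table. The NF-kB pattern matched at 4 positions, of which the pair beginning 155 and 154 bases before the start overlap in the run GGGAAAGTCCC, and 45.8% of all promoters hold a match. The GC box matched at 2 positions, 51 and 41 bases before the start, the nearer of which overlaps an NF-kB match, and 32.7% of promoters hold that motif. Neither the AP-1 motif TGANTCA, present in 6.75% of promoters, nor the cyclic AMP response element TGACGTCA, present in 1.55%, matched within this window.

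The main question, set by a design in which each mouse was its own control, was whether the members differ between the injured and the contralateral ganglia. Csf1 rose 3.00-fold on the injured side, where its level was higher at each later day. Csf1r stood level between the sides at day 1 and was the higher on the injured side in the later pools, without passing the test, and Il34 differed least. By edgeR's quasi-likelihood test blocked by pool, Csf1 passed an adjusted p of 0.05 and Csf1r and Il34 did not, 1 of 3 members, where 10.1% of all 16244 genes tested were called higher and 8.02% lower.

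Csf1 stood at 58.1, 180 and 205 CPM in the injured libraries of days 1, 3 and 7, against 31.2, 57.1 and 45.8 CPM in the contralateral libraries and 21.2 and 21.3 CPM left and right without injury. The injured library was higher in each of the 3 operated pools, although the lowest injured value, that of day 1, differed from the highest contralateral value, that of day 3, by less than their 95% counting intervals. The injured libraries averaged 148 ± 78.4 CPM and the contralateral libraries 44.7 ± 13.0 CPM (SD, n = 3 each), a spread that includes the differences between days. The fitted log2 fold change was 1.58 ± 0.23 (SE; edgeR quasi-likelihood adjusted p = 0.0169), a 3.00-fold rise that ranked 116th of 16244 genes by size. Without the day 3 pool the log2 value was 1.57 with an adjusted p of 0.138. With the side of the body as a further term, which rests on the single pool labelled no injury, it was 1.60 with an adjusted p of 0.494, a fit in which 6 genes in all were called. With no filter on low counts the log2 value was 1.57 and the adjusted p 0.0769.

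**Figure D1:**
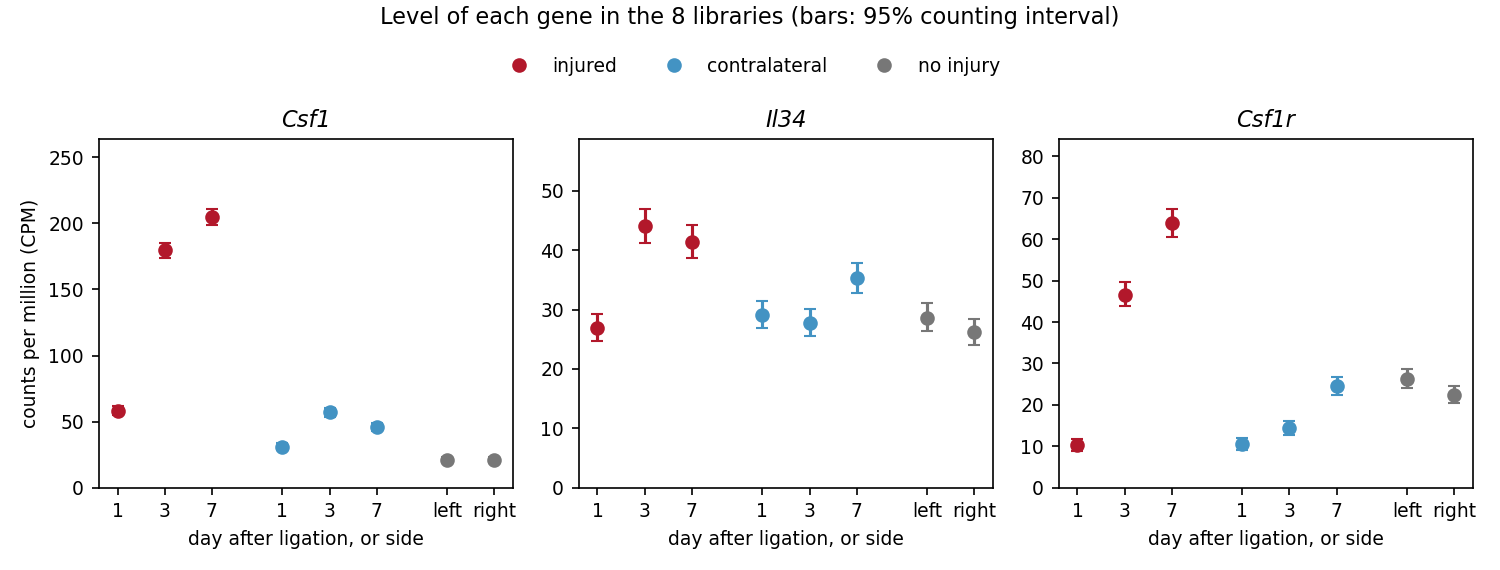
Level of Csf1, Il34 and Csf1r in CPM in each library, with injured libraries at days 1, 3 and 7, contralateral libraries at days 1, 3 and 7, and left and right libraries labelled no injury; bars are exact 95% counting intervals. The injured libraries of days 3 and 7 hold the highest level of each gene, 180 and 205 CPM for Csf1.

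Il34, the second ligand, is a minus-strand gene on chromosome 8 at 110741829 to 110805924 (ENSMUSG00000031750). Its exons overlap the antisense genes Gm15894 and Gm15895, which held at most 0.139 and 0.331 CPM. Il34 stood at 26.9, 44.0 and 41.3 CPM in the injured libraries of days 1, 3 and 7, against 29.1, 27.8 and 35.3 CPM in the contralateral libraries and 28.6 and 26.2 CPM left and right without injury. The groups overlapped, since the injured library of day 1 was below all 3 contralateral ones, and 5 libraries between 26.2 and 29.1 CPM could not be separated by their counting intervals. The means were 37.4 ± 9.19 CPM in the injured and 30.7 ± 3.99 CPM in the contralateral libraries (SD, n = 3 each), and the log2 fold change was 0.26 ± 0.13 (SE; edgeR adjusted p = 0.193). Without the day 1 pool the log2 value was 0.42 with an adjusted p of 0.0118, and without the day 3 pool 0.08 with an adjusted p of 0.670. Il34 was at its highest in injured libraries that also held much glial and connective tissue RNA, although the right library without injury held as much Schwann cell RNA with little Il34. The 8 Schwann cell genes listed summed to 4494, 7349 and 7642 CPM in the injured libraries, 4341, 4388 and 7158 CPM in the contralateral libraries and 5236 and 7258 CPM without injury, left and right. The 9 fibroblast genes summed to 2069, 4510 and 3327 CPM injured, 1548, 1575 and 2154 CPM contralateral and 2417 and 2313 CPM without injury. Of these lists 0 of 8 Schwann cell genes and 5 of 9 fibroblast genes rose and 0 fell, where 10.1% of all genes were called higher. Without the day 1 pool 1 of the 9 fibroblast genes rose, where 14.5% of all genes were called higher, so that the share is no larger than that of all genes. With all pools 3 of 8 satellite glia genes and 2 of 9 endothelial genes rose and 0 of either fell, where 10.1% of all genes were called higher. Without the day 1 pool 4 of the 8 and 2 of the 9 rose and 1 endothelial gene fell. That fit called 14.5% of all genes higher and 13.9% lower. The part of these cells in the Il34 values was not tested.

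Csf1r, the receptor, lies on the plus strand of chromosome 18 at 61100598 to 61132149 (ENSMUSG00000024621), where its exons overlap Hmgxb3, a gene of the other strand that held 43.8 to 51.7 CPM in every library. The sources used here do not give the strand setting of the counting, so which of the genes the reads in the shared stretch came from is uncertain. Csf1r stood at 10.3, 46.6 and 63.8 CPM in the injured libraries of days 1, 3 and 7, against 10.5, 14.4 and 24.5 CPM in the contralateral libraries and 26.3 and 22.4 CPM left and right without injury. The groups overlapped: the injured library of day 1 was the lowest of all 8, level with its contralateral partner, and those of days 3 and 7 were above every other library. The means were 40.3 ± 27.3 CPM in the injured and 16.4 ± 7.23 CPM in the contralateral libraries (SD, n = 3 each). The log2 fold change was 1.10 ± 0.33 (SE; edgeR adjusted p = 0.0838), a 2.14-fold value. DESeq2 gave 1.03 with an adjusted p of 0.0495, and edgeR without the day 1 pool gave 1.51 with an adjusted p of 2.15e-05. Without the day 3 pool the value was 0.81 with an adjusted p of 0.340, and without the day 7 pool 0.91 with an adjusted p of 0.326.

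**Figure D2:**
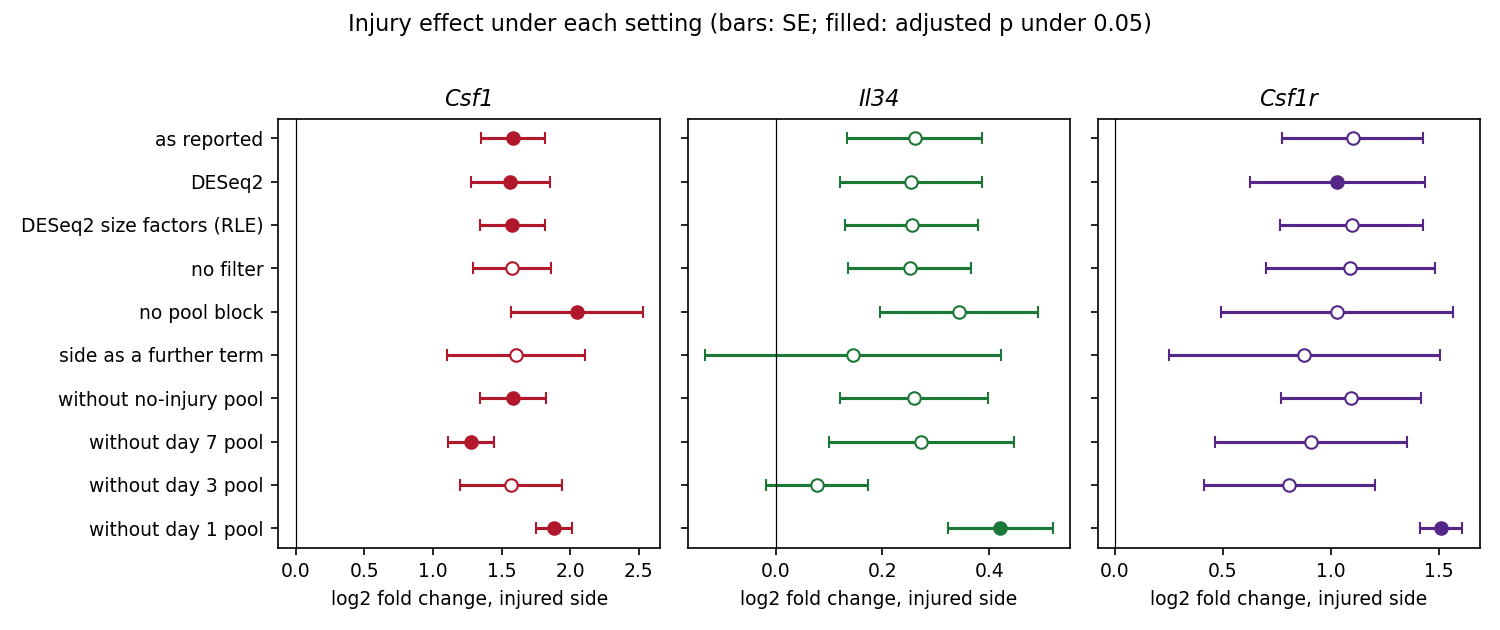
Fitted log2 fold change of the injured side (horizontal axis) for each gene under each setting (rows); bars are the SE and filled points have an adjusted p under 0.05. Every value lies above 0, from 1.28 to 2.05 for Csf1, 0.08 to 0.42 for Il34 and 0.81 to 1.51 for Csf1r, while the call changes with the pools kept.

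The 3 members were next followed through the week by the ratio of the sides within each pool. Csf1 was already higher at day 1, when Csf1r and Il34 were not, and its ratio was widest at day 7. With 1 library of a side at each day these ratios have no replicate check, and their intervals describe counting error alone. Reads were not collapsed to molecules, so the intervals may understate even that error. For Csf1 the injured side held 1.86 times the contralateral level at day 1 (95% interval 1.69 to 2.05), 3.15 times at day 3 (2.95 to 3.36) and 4.48 times at day 7 (4.17 to 4.80). From day 3 to day 7 the injured level rose from 180 to 205 CPM and the contralateral level fell from 57.1 to 45.8 CPM. The later widening of the Csf1 ratio thus came from both sides. Left over right without injury, its ratio was 0.994 (0.870 to 1.14). At day 1 only 0.919% of genes with 50 reads or more were at least 2-fold higher on the injured side, against 6.37% at day 3 and 3.12% at day 7. By the log2 ratio after TMM normalisation, Csf1 ranked 162nd of 13276 such genes at day 1, 305th of 13450 at day 3 and 61st of 13384 at day 7.

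Csf1r had an injured-to-contralateral ratio of 0.988 at day 1 (95% interval 0.815 to 1.20), 3.25 at day 3 (2.85 to 3.70) and 2.61 at day 7 (2.35 to 2.89). By the TMM-normalised log2 ratio it ranked 6721st at day 1, in the middle of all genes, 275th at day 3 and 222nd at day 7. The day 1 ratio of Csf1r rests on the contralateral library with neutrophil transcripts. The 5 monocyte genes listed summed to 74.2 CPM there and 13.3 CPM in the injured library, and the 22 macrophage genes to 308 and 250 CPM. The part of such cells in that ratio was not tested. The ratio of Il34 was 0.925 at day 1 (0.824 to 1.04), 1.59 at day 3 (1.43 to 1.76) and 1.17 at day 7 (1.06 to 1.29), and left over right without injury it was 1.09 (0.973 to 1.23). Csf1r also had a left-over-right ratio above 1 without injury, 1.17 (1.04 to 1.33).

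**Figure D3:**
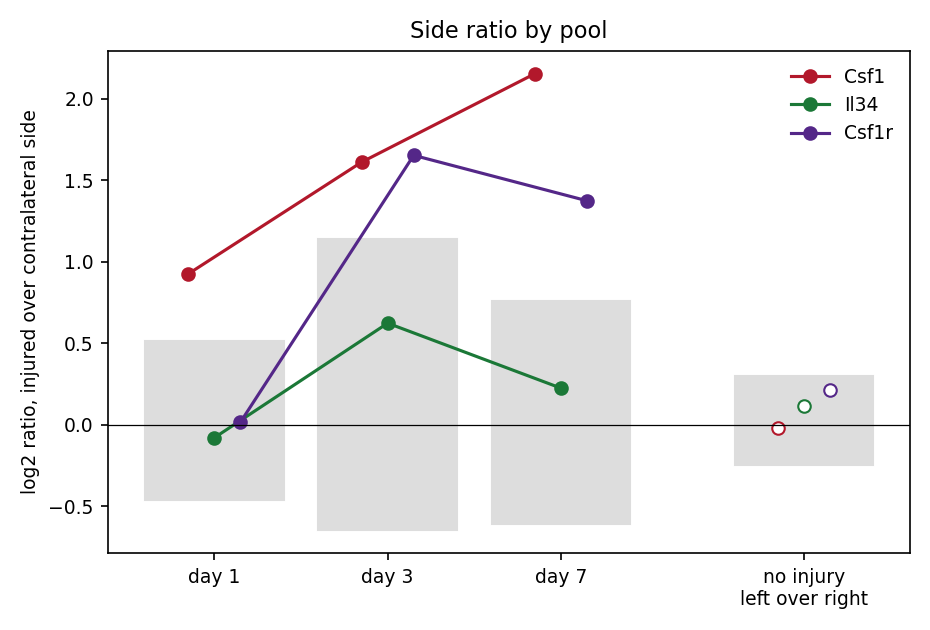
Log2 ratio of the injured over the contralateral side (TMM-normalised CPM, prior count 2) for each gene at days 1, 3 and 7, and of left over right without injury (open points); grey boxes span the 5th to 95th percentile of genes with at least 50 reads. Csf1 lies above the box at all 3 days, Csf1r at days 3 and 7, and Il34 inside it throughout.

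The change of the side difference with time was tested as injured state by log2 of the day. Csf1 had the slope with the fourth-lowest p of 16244 genes, 0.44 ± 0.04 on the log2 scale per doubling of days (SE, unadjusted p = 1.61e-05 in edgeR), and an adjusted p of 0.0562 that missed the threshold. Csf1r had a slope of 0.48 ± 0.20 (adjusted p = 0.671) and Il34 of 0.12 ± 0.10 (adjusted p = 0.830). This edgeR fit called 0% of genes, 0 of 16244, with 1299 at an unadjusted p under 0.05, and DESeq2 called 96. Csf1 was called by DESeq2 (adjusted p = 1.45e-06), with size factors in place of TMM (0.0447) and without the filter on low counts (0.00563). It was not called with day rank in place of log2 day (0.104) or without the pool labelled no injury (0.362).

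Whether a member responded more than another was tested within pools, by the difference of their log2 side ratios. The side ratio of Csf1 exceeded that of Il34 by 1.01, 0.99 and 1.93 at days 1, 3 and 7, in 3 of 3 pools, and that of Csf1r exceeded that of Il34 by 0.09, 1.03 and 1.15. Csf1 minus Csf1r gave 0.91, -0.04 and 0.78 at days 1, 3 and 7, so that the receptor had the slightly larger ratio at day 3. By an exact two-sided sign-flip permutation test over 3 pools the p-values were 0.25, 0.25 and 0.50 (adjusted over the 3 pairs 0.375, 0.375 and 0.50), and 0.25 is the smallest p this design allows.

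Set against each other per length of exon, the ligands changed places. Levels per length are length-normalised shares of all transcripts, computed from the counts and the union of annotated exons, 5281 bases for Csf1 and 1959 for Il34. Csf1 made up 44.5%, 60.2% and 64.8% of the ligand transcripts in the injured libraries of days 1, 3 and 7, against 28.5%, 43.3% and 32.5% in the contralateral libraries and 21.5% and 23.2% left and right without injury. On these lengths Csf1 was the more abundant ligand transcript in the injured libraries of days 3 and 7 only, and Il34 in the other 6. With the longest protein-coding transcript of each gene as its length, 4176 and 1796 bases, the shares of these 2 libraries were 63.7% and 68.1%, and the other 6 lay between 24.1% and 48.1%. By reads not divided by length, Csf1 exceeded Il34 in every operated library, with 1191 against 552 reads in the injured library of day 1. Il34 had more reads in both libraries without injury. The order of the ligands thus depends on the lengths used, and no shorter length of Csf1 was tried.

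Ligand transcripts also shifted relative to the receptor's. Per length, Csf1 stood at 6.14, 4.21 and 3.51 times the level of Csf1r in the injured libraries of days 1, 3 and 7, against 3.26, 4.35 and 2.04 times in the contralateral libraries and 0.881 and 1.04 times without injury. Il34 stood at 7.67, 2.78 and 1.91 times Csf1r in the injured libraries, 8.19, 5.70 and 4.25 times on the contralateral side and 3.21 and 3.45 times without injury. On the injured side both ratios were highest at day 1, when the receptor was at its lowest. On the contralateral side that held for Il34, while the ratio of Csf1 was highest at day 3.

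**Figure D4:**
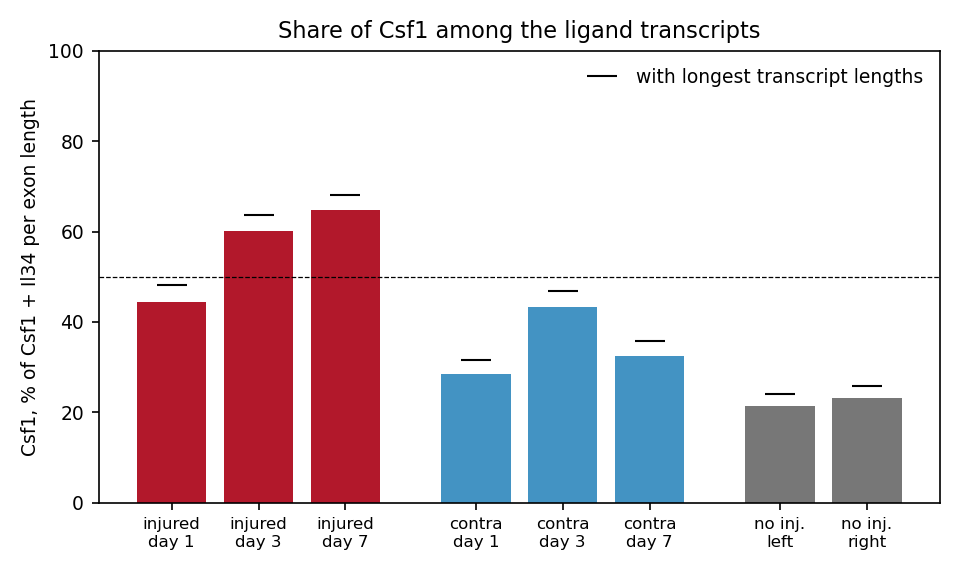
Csf1 as a percentage of Csf1 plus Il34 transcripts per exon length in each library (bars), and the same with the longest protein-coding transcript as the length (black dashes); the dashed line marks 50%. Only the injured libraries of days 3 and 7, at 60.2% and 64.8%, lie above it.

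The contralateral side was then set against the pool labelled no injury, to see whether the members differ in ganglia that were not themselves operated on. These pools differ in sex as well as in surgery, and the effects of sex, pool and surgery cannot be told apart. The contralateral libraries also held more injury-induced RNA, with Atf3 at 126, 167 and 110 CPM against 10.9 and 11.0 CPM without injury. The 11 genes listed as rising in axotomised neurons summed to 702, 1138 and 945 CPM there, against 416 and 432 CPM. The source of that RNA was not tested, and the contralateral library is the base of every side ratio. Csf1 was higher in each contralateral library, 1.47, 2.69 and 2.16 times the summed no-injury level of 21.2 CPM at days 1, 3 and 7, and Csf1r was lower at day 1 and day 3, at 0.431 and 0.591 times 24.3 CPM, and level at day 7, at 1.01 times. Il34 lay at 1.06, 1.01 and 1.29 times 27.4 CPM. None of the 3 passed edgeR's quasi-likelihood test, which called 0.125% of 16747 genes higher and 0.155% lower: the log2 values were 1.08 ± 0.46 for Csf1 (SE; adjusted p = 0.688), 0.17 ± 0.14 for Il34 (0.820) and -0.56 ± 0.56 for Csf1r (0.887). Without the contralateral library of day 1 Csf1 had a log2 value of 1.29, in a fit of 2 libraries against 1 whose calls are not given.

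In the same way the injured libraries were compared with that pool, and this comparison shares its no-injury libraries with the one before. Csf1 stood at 2.74, 8.46 and 9.65 times the no-injury level in the injured libraries of days 1, 3 and 7. Csf1r stood at 0.426, 1.92 and 2.63 times and Il34 at 0.984, 1.61 and 1.51 times that level. The edgeR log2 values were 2.79 ± 0.82 for Csf1 (adjusted p = 0.296), 0.45 ± 0.29 for Il34 (0.527) and 0.72 ± 0.95 for Csf1r (0.755), in a fit that called 0.112% of 16924 genes higher and 0.0236% lower. Without the day 1 library the log2 values were 3.17 for Csf1, 0.63 for Il34 and 1.17 for Csf1r. That fit set still fewer libraries against 1 summed sample, so its calls are not given.

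Genes known to rise in axotomised neurons were called higher in nearly every case. Of the 11 listed, 10 rose and 0 fell, where 10.1% of all genes were called higher. Their median log2 fold change was 1.77 against 0.02 over all genes tested. Gadd45a, a growth-arrest gene, rose by 1.74 ± 0.09, Flrt3, an adhesion protein, by 1.78 ± 0.10 and Jun, a transcription factor of the regeneration programme, by 1.03 ± 0.06 (log2, SE). The summed level of the 11 genes was 1596, 3288 and 4035 CPM in the injured libraries of days 1, 3 and 7, 702, 1138 and 945 CPM in the contralateral libraries and 416 and 432 CPM without injury. The 8 libraries stood in the same order for that sum as for the level of Csf1, although for Csf1 the counting intervals of the injured library of day 1 and the contralateral one of day 3 overlap, as do those of both libraries without injury. Of 13 sensory neuron identity genes 5 fell and 0 rose, among them Isl1 and Pou4f1, transcription factors of sensory neurons, by 0.40 and 0.32 on the log2 scale. Without the day 1 pool 9 of the 13 fell and 1 rose, in a fit that called 13.9% of all genes lower, against 8.02% with all pools. Without the pool labelled no injury 1 fell, where 2.8% of all genes were called lower. These lists were drawn up with earlier results of these data known.

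Macrophage genes mark the cells that carry the receptor. Of 22 macrophage genes other than Csf1r, 6 rose and 0 fell, where 10.1% of all genes were called higher. Their median log2 fold change was 1.05. With the day 1 pool left out 16 rose, where 14.5% of all genes were called higher, and without the pool labelled no injury 3 rose, where 4.76% were. Cd163, a scavenger receptor of tissue macrophages, rose by 0.98 ± 0.13, Cd14, the lipopolysaccharide co-receptor, by 1.13 ± 0.22, Ms4a7 by 1.36 ± 0.27 and Aif1, which encodes IBA1, by 0.99 ± 0.23 (log2, SE). Among 6 microglia-like genes tested of 7 listed, P2ry12, Tmem119 and Fcrls rose, by 0.60, 0.94 and 1.62, against the same 10.1%. Tmem119 stood at -0.035 with the side of the body as a further term. Of this list 5 of 7 tested rose without the day 1 pool, and 1 of 5 without the pool labelled no injury. The summed level of the 22 macrophage genes was 250, 662 and 647 CPM in the injured libraries of days 1, 3 and 7, 308, 292 and 398 CPM in the contralateral libraries and 432 and 353 CPM left and right without injury.

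In single pools Csf1r lay near the middle of the macrophage genes at days 1 and 3 and in their upper part at day 7. At day 1 its log2 side ratio was 0.01, as was the median of the 17 macrophage genes with at least 50 reads (range -1.13 to 0.80). At day 3 it was 1.65 against a median of 1.72 over 22 genes (-0.07 to 3.17), with 12 genes above it. At day 7 it was 1.37 against 1.05 over 21 genes (-0.05 to 1.71), with 4 above it. Left over right without injury gave 0.21 for Csf1r and 0.31 for the median of 18 genes. Of 5 genes of circulating monocytes and 10 of neutrophils none was called, and at day 1 their median log2 side ratios were -3.30 and -4.41, set by the contralateral library with neutrophil transcripts. Of 10 cell cycle genes none was called either, with median side ratios of -2.86, 1.67 and 0.60 at days 1, 3 and 7. At day 1 they summed to 30.2 CPM injured and 78.4 CPM in that contralateral library. The contralateral sums at days 3 and 7 were 34.4 and 42.6 CPM. Without the day 1 pool 6 rose, where 14.5% of all genes were called higher.

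**Figure D5:**
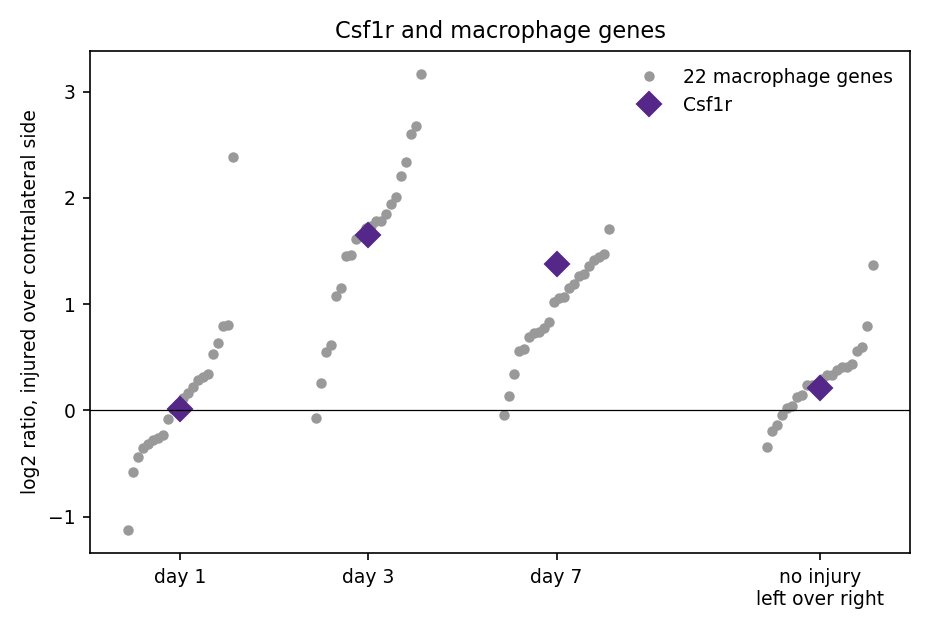
Log2 side ratio of Csf1r (diamonds) beside 22 macrophage genes (grey points, sorted within each pool, genes under 50 reads included) at days 1, 3 and 7 and, without injury, left over right. Csf1r lies near the middle of the macrophage genes at days 1 and 3 and in their upper part at day 7.

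Partners of the receptor inside the cell were described next. Of 14 signalling genes 3 rose and 0 fell: Socs1, an inhibitor of cytokine signalling, by 1.00 ± 0.21, Adam17, the protease that sheds surface proteins including CSF1R, by 0.49 ± 0.10, and the transcription factor Stat3 by 0.27 ± 0.08 (log2, SE). Tyrobp, the DAP12 adaptor through which Csf1 acts on microglia in mice, was at 5.37, 17.2 and 16.2 CPM in the injured libraries of days 1, 3 and 7, against 10.2, 4.44 and 9.98 CPM in the contralateral libraries and 9.79 and 6.79 CPM without injury. Its log2 value was 0.59 ± 0.56 (edgeR adjusted p = 0.522), and its contralateral level was highest in the day 1 library with neutrophil transcripts. Leaving out the day 1 pool, 8 of the 14 rose, in the fit that called 14.5% of all genes higher, against 10.1% with all pools. Of 8 transcription factors that control Csf1r in myeloid cells 3 rose, among them Ets2 by 0.76 ± 0.06 and Cebpb by 0.70 ± 0.11, and Runx1 fell by 0.37. Spi1, which encodes PU.1, the main activator of Csf1r, had a log2 value of 0.73 ± 0.51 (adjusted p = 0.365), with 2.68, 5.25 and 5.25 CPM injured, 4.41, 1.22 and 2.73 CPM contralateral and 3.47 and 2.45 CPM without injury.

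Among the related growth factor systems no ligand other than Csf1 was called. Csf2, Csf3 and Il3 had 0 reads in all 8 libraries, which allows up to 0.139 to 0.146 CPM in each. The 6 other ligands tested, Kitl, Flt3l and 4 platelet-derived growth factors, had log2 values from -0.33 to 0.39, Pdgfb coming closest to the threshold (0.37 ± 0.11, adjusted p = 0.0523). Of 11 receptors Sdc1 rose and Flt3 fell, by 0.28 on the log2 scale, 1 in each direction, which is near the 10.1% and 8.02% of all genes called higher and lower. Sdc1 encodes syndecan-1, a heparan sulphate proteoglycan reported to bind IL-34, and stood at 61.6, 144 and 163 CPM in the injured libraries of days 1, 3 and 7, against 36.2, 56.1 and 43.6 CPM in the contralateral libraries and 25.5 and 26.8 CPM without injury. It rose by 1.35 ± 0.21 (log2, SE; edgeR adjusted p = 0.0168), and lost its call where Csf1 did, without the day 3 pool, without the filter and with the side term. Ptprz1, the other protein reported to bind IL-34, had a log2 value of 0.04 ± 0.08, and Csf2rb2, a subunit related to the shared receptor chain of Csf2, of 1.04 ± 0.32 (adjusted p = 0.0719). Without the day 1 pool 2 of the 6 ligands and 5 of the 11 receptors rose, where 14.5% of all genes were called higher.

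The genes whose pattern over the 8 libraries was most like each member were ranked by Pearson's r of log2 CPM (TMM, prior count 2) among 11287 protein-coding genes with a mean of at least 5 CPM. The 8 points share 4 pools of mice, so r describes these libraries. Most like Csf1 were Dhrs1, a dehydrogenase (r = 0.9995), Sdc1 (0.998), S100a11, a calcium-binding protein (0.997), Gnpnat1, an enzyme of amino sugar synthesis (0.997), and Stmn4, a neuronal stathmin (0.995). The log2 side ratio of Dhrs1 was 0.32, 0.51 and 0.68 at days 1, 3 and 7. In each of these 5 genes that ratio was smallest at day 1 and widest at day 7. Their choice by likeness to Csf1 over the same libraries largely sets that order, so it is no separate result. Ube2n, Prkdc and Galnt13 ran most opposite to Csf1, with r of -0.988, -0.987 and -0.987. Among the 5 most like Csf1r were the ubiquitin ligase gene March8 (0.989), the fractalkine receptor gene Cx3cr1 (0.984), Cggbp1 (0.981) and Adgre1, which encodes the macrophage antigen F4/80 (0.978). Cx3cr1 held 2.29, 15.4 and 20.8 CPM in the injured libraries of days 1, 3 and 7, against 2.86, 5.38 and 7.44 CPM in the contralateral libraries and 8.39 and 6.23 CPM without injury. Htra1, Arfgap3 and Ppp3cc ran most opposite to Csf1r (-0.980, -0.979 and -0.976). Most like Il34 were Paxbp1 (0.991), the semaphorin receptor gene Plxnb1 (0.988), Adgrl4, an endothelial adhesion receptor (0.985), the lysosomal protease gene Ctss (0.974) and Angptl7 (0.971), and most opposite Nfs1, Ipmk and Kat5 (-0.982, -0.974 and -0.974).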

How the data were processed

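Whole-number read counts per Ensembl gene were used as deposited, from all 8 columns. Per the submitters' processing notes, the tools were STAR 2.5.4a, cutadapt 1.16, DESeq2 and featureCounts 1.6.3 and the build GRCm38, without stated roles. Strand setting, treatment of multi-mapping reads and annotation release: not given in the sources used here. Symbols, positions and exon lengths came from GENCODE M21 (GRCm38, 53706 IDs matched).

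The test was edgeR 4.0.16 in R 4.3.3 (robust quasi-likelihood, TMM, a filterByExpr minimum of 10 reads, Benjamini-Hochberg adjustment over all genes tested, threshold 0.05). The injury effect used the 8 libraries with pool as a block (3 residual degrees of freedom). The trend model had a further term, injured state times log2 of the day after centring, and for comparisons with the no-injury pool its libraries were summed to 1 sample assumed to vary like the others (2 each). SEs were taken from the F statistic. P-values reflect variation among these pools, differences in time included. Pools pair the sides because the design makes each mouse its own control, and deviations within pools correlated by 0.249, -0.0618 and 0.356 at days 1, 3 and 7. No pair of libraries agreed within sampling noise (lowest chi-square per gene 7.01). Side ratios used log2 CPM with a prior count of 2, and intervals are 95% Clopper-Pearson (scipy 1.17.1). Alternatives were DESeq2 1.42.0, its size factors, no filter, left-out pools, no block, a side term, left and right as separate controls, day rank, a prior count of 0.5 and another gene length. The fits were tested on simulated counts.

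The members and the 15 gene lists (154 genes) were chosen with earlier results of these data known. Named genes are the members, Atf3, Tyrobp, Spi1, Aif1, up to 3 genes per list with the lowest p, and for each member the 5 most and 3 least alike; some of these are not reported here. Marker genes, the ligands at 0 and further called members of short lists were named after their values were seen.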

Additional observations from a re-analysis of the deposited data

Results flagged for a closer look

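The side ratio of Il34 had opposite signs at different days, a difference that was not tested beyond the trend: its log2 value was -0.081 at day 1 and 0.62 at day 3 and 0.22 at day 7, each from 1 library of a side. The counting interval of the day 1 ratio includes 1. Groups held 2 or 3 libraries, too few to look for a single outlying sample.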

How the results depend on the processing

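The direction of all 3 members was kept under every alternative run for the injury effect, the trend and both comparisons with the no-injury pool. The injury effect of Csf1 lost its call with no filter (1.57), with the side term (1.60) and without the day 3 pool, with a range of 1.28 to 1.88 over left-out pools. Csf1r gained a call by DESeq2 (1.03) and without day 1 (range 0.81 to 1.51), and Il34 without day 1 (0.078 to 0.42). Without the pool block Csf1 stood at 2.05 (adjusted p = 0.0294), Il34 at 0.34 and Csf1r at 1.03, and no member's call changed. The 2946 genes called fell to 6 with the side term and 1212 without the no-injury pool, and ranged from 631 to 4669 over left-out pools. For the trend, Csf1 was called by DESeq2 (0.44), with size factors (0.44) and with no filter (0.44), where 96, 9 and 32 genes were called against 0. Against no injury, the contralateral value of Csf1 ranged from 0.86 to 1.29 over left-out libraries, and 47 calls became 377 by DESeq2, 698 with no filter, 372 with left and right as separate samples and 16 to 954 over left-out libraries. For the injured libraries Csf1 was called with left and right separate (2.79) and ranged from 2.47 to 3.17, Il34 from 0.33 to 0.63 and Csf1r from 0.21 to 1.17, and 23 calls became 1460 by DESeq2, 479 with no filter, 1145 with left and right separate and 1 to 3148 over left-out libraries. The pair differences ranged from 1.00 to 1.47 for Csf1 minus Il34, 0.37 to 0.85 for Csf1 minus Csf1r and 0.56 to 1.09 for Csf1r minus Il34.

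Among other named genes the direction turned with the side term for Csf2rb2 (-0.27), Mcm5 (-0.093) and Tmem119 (-0.035). Over left-out pools Birc5 ranged from -0.10 to 1.05, Mcm5 from -0.24 to 0.77, Tyrobp from -0.040 to 1.26 and Ipmk from -0.15 to 0.015, each turning without day 3. Chil3 ranged from -1.95 to 0.44, Elane from -3.21 to 1.05 and Mpo from -3.92 to 0.022, each turning without day 1. Left-out libraries leave fewer samples, and the cause of the other changes was not tested. The counts of list genes without single pools and the other gene length were chosen after seeing the data. Every member had 212 reads or more in every library, and each side and day has a single library.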
